A study of Mus musculus with 6 samples.

Results

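Triptonide and triptolide, a pair of close diterpenoid analogs in which a ketone of triptonide stands where triptolide has a hydroxyl group, were compared directly by RNA sequencing in GC-2 cells. The comparison covers 4 of the 6 libraries of the series, namely 2 of cells exposed to triptonide and 2 of cells exposed to triptolide, chosen by their labels. The 2 libraries of control cells serve to say in which direction each compound moved a transcript. All 6 libraries come from the mouse spermatocyte line labelled GC2, grown in culture, so that they stand for a single line and not for testis tissue. The labels' protocol gives 0.1 µM triptolide for 24 h, worded alike for every sample, and states neither a dose nor a time for triptonide, nor what the control cells received. The doses of the compounds are therefore not known to match, and compound and effective dose cannot be told apart. The labels spell the agent of the triptolide libraries Tiptolide. Nothing in the labels tells whether replicate libraries are separate cultures. The p-values then reflect the spread among these samples alone, and that spread may be technical. In bulk RNA, fewer cells of a kind and less RNA per cell cannot be told apart.

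Both compounds occur in the vine Tripterygium wilfordii, extracts of which are known to reduce male fertility. Triptolide binds XPB, a helicase subunit of the general transcription factor TFIIH, which opens DNA at promoters so that RNA polymerase II can start. When initiation is blocked, RNAs with a short life fall first, whereas stable RNAs take a larger share of what remains. Because the total amount of RNA may itself change, a share such as FPKM and an amount per cell can move apart.

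The measured unit was the transcript, in FPKM, the number of sequenced fragments scaled by transcript length and by the size of the library. The table gives transcript IDs without gene names. Of its 65535 IDs, 0 were found in the name tables used here, so no gene, pathway or cell type marker is named and the label of the line was not checked against markers. Few IDs are therefore printed, and most transcripts are described by their number and levels. Transcripts of 1 gene share sequence, so a change of a single transcript may be a change of isoform. The 23407 transcripts that reached 0.5 FPKM in 2 or more libraries were tested on the log2(FPKM + 0.5) scale, and every difference below is on that scale. Changes of low transcripts are understated on it. Each result is given for FPKM as deposited and after median-of-ratios scaling, which divides a library by its median ratio to the geometric mean of the libraries. The factors were 1.09 and 1.07 for the triptonide libraries, 0.856 and 0.868 for the triptolide libraries, and 1.05 and 1.10 for the control libraries, so that scaling raises triptolide values relative to the others. Replicates had a Pearson r across tested transcripts of 0.924 for triptonide, 0.923 for triptolide and 0.932 for control, against 0.892 to 0.900 between triptonide and triptolide libraries, and transcripts are not independent replicates. Absolute depth is unknown. The steps of low FPKM values put the relative depth at 1 and 0.966 in the triptonide libraries and at 0.785 and 0.883 in the triptolide libraries.

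Triptonide and triptolide libraries differed in transcripts of both signs, and the choice of scaling decided how many lay on each side. As deposited, 2821 transcripts (12.1% of those tested) were higher and 848 (3.62%) lower after triptonide than after triptolide at a limma adjusted p under 0.05, together 15.7%. After median-of-ratios scaling 1115 (4.76%) were higher and 1552 (6.63%) lower, together 11.4%. The median difference of all tested transcripts was 0.24 as deposited and 0.01 after scaling. Under both scalings 1961 transcripts were called, 8.38% of those tested, of which 1115 were higher and 846 (3.61%) lower, and 0 of them turned sign. They made up 53.4% of the calls as deposited and 73.5% of those after scaling. The number called under both depended on each library. It was 25 and 75 without triptonide replicate 1 or 2, 54 and 38 without triptolide replicate 1 or 2, and 813 and 812 without control replicate 1 or 2. The comparisons with control that follow share the same control libraries, and each is given side by side with the other.

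A difference was counted as one of kind in 3 ways. The compounds could both pass the test against control with opposite signs. One compound could pass the test and reach 2-fold against control while the 95% interval of the other stayed within 2-fold of control. This bound does not separate a smaller change in the same direction from no change. A transcript could also be listed at 0 in both libraries of one compound and be present in both of the other. A difference of strength was a called difference with both compounds called against control in the same direction.

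**Figure D1:**
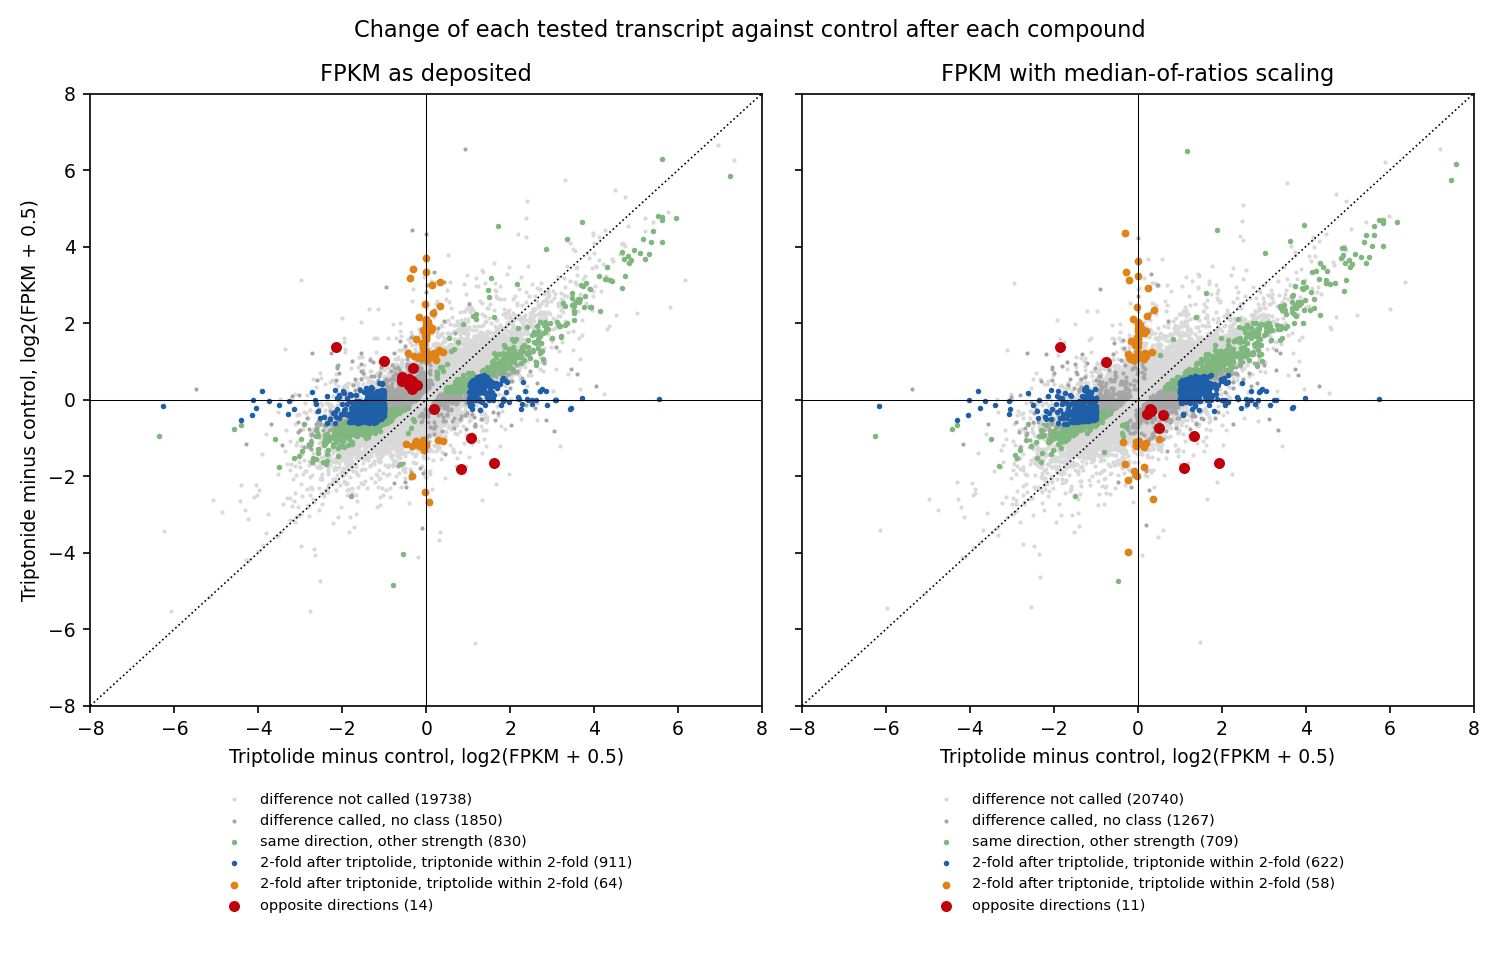
Difference of each of the 23407 tested transcripts against control on the log2(FPKM + 0.5) scale, triptolide on the horizontal and triptonide on the vertical axis, for FPKM as deposited (left) and after median-of-ratios scaling (right), coloured by class. Both axes share the control libraries, so the slope of the cloud is not a result. The red points, with opposite directions, number 14 on the left and 11 on the right.

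Opposite calls against control were rare. Both compounds were called against control with opposite signs, and the compounds called as different, for 14 transcripts as deposited and for 11 after scaling, 0.0598% and 0.047% of those tested. In all, 5 transcripts met this under both scalings, 0.0214% of those tested, and the same number under all 4 scalings tried. Of these 5, 2 were higher (0.00854%) and 3 lower (0.0128%) after triptonide. The split was 10 higher and 4 lower as deposited, 0.0427% and 0.0171%, and 2 and 9 after scaling, 0.00854% and 0.0385%. Against control as deposited, triptonide was called in 10.6% of all tested transcripts, 6.27% higher and 4.36% lower, and triptolide in 35.4%, 12.4% higher and 23.1% lower. After scaling, triptonide was called in 9.22%, 5.44% higher and 3.79% lower, and triptolide in 31.7%, 16.9% higher and 14.9% lower.

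Among these 5, ENSMUST00000135836 had the larger difference of the 2 that were higher after triptonide. It had 42.3 and 45.2 FPKM in the triptonide libraries, 3.06 and 3.62 FPKM in the triptolide libraries, and 13.2 and 20.7 FPKM in the control libraries. Both triptonide libraries lay above both control libraries and both triptolide libraries below them, with no overlap between any of the groups. The mean was 43.8 ± 2.02 FPKM after triptonide against 3.34 ± 0.395 FPKM after triptolide (SD, n = 2 each), and the log2 difference was 3.53 ± 0.23 (SE; limma adjusted p = 0.00640) as deposited. After scaling it was 3.23 ± 0.21 (SE; limma adjusted p = 0.00925). Against control the log2 change was 1.38 for triptonide and -2.15 for triptolide as deposited, and 1.37 and -1.86 after scaling.

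ENSMUST00000019945 showed the same arrangement at a lower level. It had 6.20 and 5.76 FPKM in the triptonide libraries, 1.03 and 1.20 FPKM in the triptolide libraries, and 2.37 and 3.15 FPKM in the control libraries. The 3 groups did not overlap, with control in the middle. The log2 difference between the compounds was 2.01, with a 95% interval of 1.56 to 2.46 (limma adjusted p = 0.00781), and 1.76 after scaling (limma adjusted p = 0.0122). Its change against control was 1.00 for triptonide and -1.01 for triptolide as deposited, and 0.99 and -0.77 after scaling. The limma adjusted p against control was 0.0341 for triptonide and 0.0127 for triptolide as deposited, and 0.0321 and 0.0230 after scaling.

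Among the same 5, ENSMUST00000165485 had the largest difference of the 3 that were lower after triptonide. It had 3.44 and 2.89 FPKM in the triptonide libraries, 41.2 and 29.4 FPKM in the triptolide libraries, and 9.98 and 12.3 FPKM in the control libraries. Here the triptonide libraries were lowest and the triptolide libraries highest, again without overlap. The mean was 3.16 ± 0.386 FPKM after triptonide against 35.3 ± 8.36 FPKM after triptolide (SD, n = 2 each), a log2 difference of -3.27 ± 0.21 (SE; limma adjusted p = 0.00637). After scaling it was -3.58 ± 0.20 (SE; limma adjusted p = 0.00906). The change against control was -1.66 for triptonide and 1.61 for triptolide as deposited, and -1.66 and 1.92 after scaling. The limma adjusted p against control was 0.0183 for triptonide and 0.00575 for triptolide as deposited, and 0.0200 and 0.00376 after scaling.

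ENSMUST00000166139 was under 0.5 FPKM after triptonide. It had 0.270 and 0.221 FPKM in the triptonide libraries, 3.98 and 4.41 FPKM in the triptolide libraries, and 1.74 and 2.62 FPKM in the control libraries. The triptonide libraries lay below and the triptolide libraries above both control libraries. The log2 difference was -2.65, with a 95% interval of -3.22 to -2.09 (limma adjusted p = 0.00740), and -2.88 after scaling (limma adjusted p = 0.00925). Its rise after triptolide lay close to the threshold, with a log2 change against control of 0.83 as deposited (limma adjusted p = 0.0412) and 1.10 after scaling (limma adjusted p = 0.0160).

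ENSMUST00000016696 completed the group of 5 and was named after its values were seen, since the rule for named transcripts took 2 in each direction. It had 0.342 and 0.198 FPKM in the triptonide libraries, 2.76 and 2.68 FPKM in the triptolide libraries, and 1.02 and 1.03 FPKM in the control libraries. The groups did not overlap and control lay in the middle. The log2 difference was -2.07, with a 95% interval of -2.52 to -1.62 (limma adjusted p = 0.00751), and -2.29 after scaling (limma adjusted p = 0.00995). Against control its log2 change was -0.99 for triptonide and 1.08 for triptolide as deposited, and -0.96 and 1.33 after scaling. The limma adjusted p against control was 0.0353 for triptonide and 0.0107 for triptolide as deposited, and 0.0397 and 0.00616 after scaling.

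A ratio of 2 transcripts within 1 library does not depend on the scaling. The ratio of ENSMUST00000135836 to ENSMUST00000165485 was 12.3 and 15.6 in the triptonide libraries, 0.0742 and 0.123 in the triptolide libraries, and 1.32 and 1.69 in the control libraries. The ratio of ENSMUST00000019945 to ENSMUST00000166139 was 23.0 and 26.0 in the triptonide libraries, 0.258 and 0.271 in the triptolide libraries, and 1.36 and 1.20 in the control libraries. For both pairs the control ratio lay between those of the compounds. The pairs were formed from transcripts already chosen for their opposite movement, so these ratios are a description.

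The 5 calls rested on every library. On FPKM as deposited, the difference between the compounds missed the threshold for all 5 without triptonide replicate 1. With each of the other libraries left out it passed as deposited. The same check of that difference after scaling is not given here. The stricter requirement of calls against control in both directions was kept by 0 of the 5 under both scalings without triptonide replicate 1 or 2 or control replicate 1, and by 1 without triptolide replicate 1, triptolide replicate 2 or control replicate 2. With all libraries and FPKM as deposited, the opposite calls were also lost for 4 of the 5 with no filter, for all 5 with a replicate block, and for ENSMUST00000166139 with a pseudocount of 0.1. The signs of the changes against control were the same in all 5 transcripts under each of the 16 other settings tried.

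**Figure D2:**
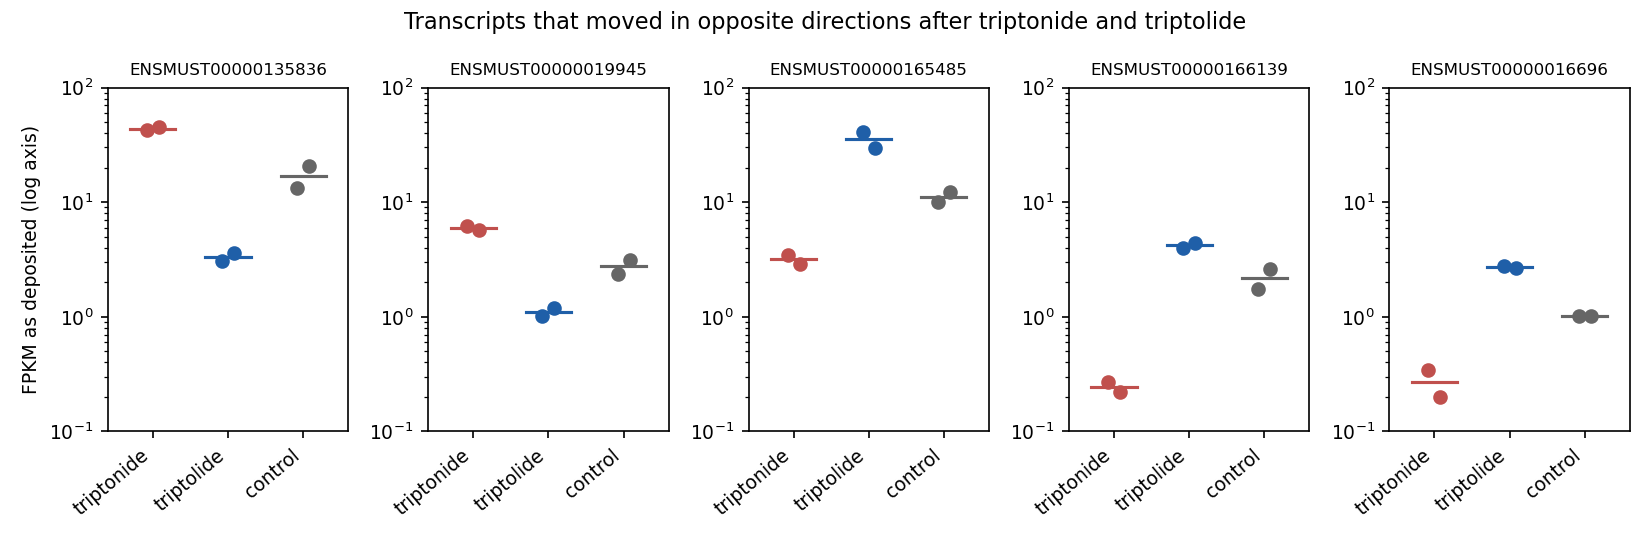
FPKM as deposited, on a log axis, of the 5 transcripts called in opposite directions against control under both scalings. Points are libraries and lines are group means (n = 2 each). In the first 2 panels triptonide lies above and triptolide below control, and in the other 3 the order is turned round.

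Outside these 5, which transcripts were called in opposite directions depended on the scaling. As deposited, 8 more transcripts were higher and 1 was lower after triptonide. The 8 had log2 changes against control of 0.27 to 0.82 in size after triptonide and of 0.22 to 0.59 after triptolide, and control replicate 1 levels of 6.64 to 61.1 FPKM. After scaling, 1 of the 8 had the same sign of change for both compounds, and 7 were still called as different between the compounds. Those of the 8 with opposite signs after scaling had triptolide changes of -0.28 to -0.02 there. The 1 lower transcript, ENSMUST00000001809, had 422 and 445 FPKM in the triptonide libraries, 569 and 598 FPKM in the triptolide libraries, and 509 and 512 FPKM in the control libraries. Its signs stayed opposite after scaling, with log2 changes of -0.24 for triptonide and 0.51 for triptolide, and the compounds were still called as different. After scaling 6 other transcripts took their place, all of them lower after triptonide, with changes of 0.24 to 0.75 and of 0.22 to 0.59 in size. As deposited, 4 of these 6 had the same sign of change for both compounds, and all 6 were called as different between the compounds. The shift that scaling gives to the median change after triptolide was of similar size, from a log2 change of -0.26 as deposited to -0.03 after scaling, and whether the scaling sets these small opposite changes was not tested.

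A count by library position alone gave more transcripts. Under both scalings 308 transcripts had both triptonide libraries above and both triptolide libraries below both control libraries, 1.32% of those tested, and for 105 of them the compounds were called as different. The reverse order was seen in 131 transcripts, 0.56% of those tested, and 69 of them were called as different. Over all tested transcripts 8.38% were called under both scalings, and the position rule itself requires the compounds not to overlap. At least 2-fold between the compounds under both scalings were 59 and 24 of these. As deposited the position counts were 848 and 151, 3.62% and 0.645%, and after scaling 336 and 441, 1.44% and 1.88%, so that the larger of the 2 sides turned with the scaling.

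**Figure D3:**
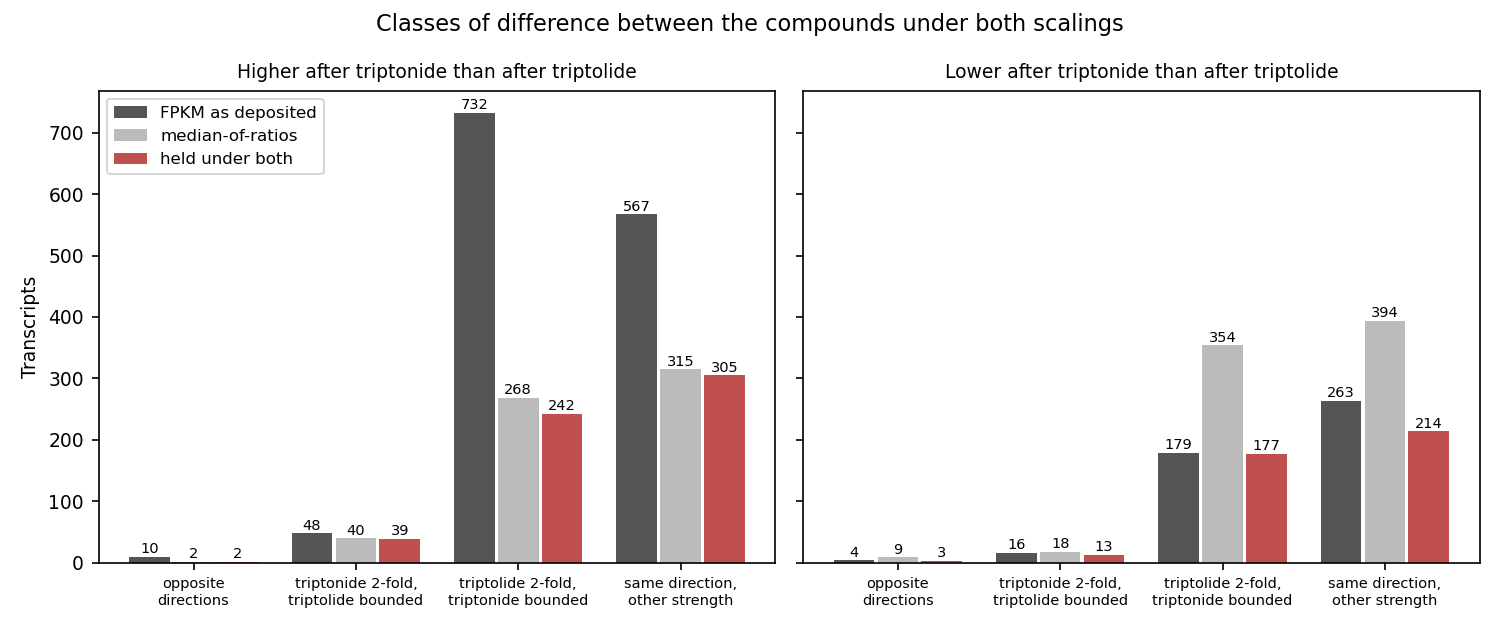
Number of transcripts in each class of difference, for those higher (left) and lower (right) after triptonide than after triptolide, with FPKM as deposited, after median-of-ratios scaling and under both. On the left 732 transcripts moved 2-fold by triptolide with triptonide bounded as deposited, against 268 after scaling, while the classes of opposite direction hold at most 10 transcripts.

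Changes of at least 2-fold after triptolide with triptonide held within 2-fold of control were the largest class counted as of kind. In most of those held under both scalings, both triptonide libraries also lay to the triptolide side of both control libraries, as given below. The class held 911 transcripts as deposited and 622 after scaling, 3.89% and 2.66% of those tested, and 419 under both, 1.79%. Of the 419, 242 (1.03%) had fallen after triptolide and were higher after triptonide, and 177 (0.756%) had risen after triptolide and were lower after triptonide. As deposited the split was 732 and 179, 3.13% and 0.765%, and after scaling 268 and 354, 1.14% and 1.51%. Falls of at least 2-fold after triptolide were called in 11.4% of all tested transcripts as deposited and in 6.54% after scaling, and such rises in 7.13% and 9.78%. Refits under both scalings held 11 and 29 such transcripts without triptonide replicate 1 or 2, 38 and 22 without triptolide replicate 1 or 2, and 242 and 231 without control replicate 1 or 2. Of the 419 themselves, these refits kept 8, 16, 19, 11, 110 and 108, in that order.

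The 242 transcripts that fell after triptolide were of moderate level. Their median was 4.79 and 4.58 FPKM in the triptonide libraries, 1.495 and 1.61 FPKM in the triptolide libraries, and 5.96 and 5.97 FPKM in the control libraries. The median log2 change against control was -0.31 after triptonide and -1.49 after triptolide as deposited. In 164 of the 242 both triptonide libraries also lay below both control libraries as deposited, and in 167 after scaling. Over all tested transcripts this position was seen in 29.7% as deposited and in 30% after scaling. The triptonide and control libraries overlapped under both scalings in 62 of the 242, or 25.6%, where the share over all tested transcripts was 40.4%. Those 62 had medians of 3.29 and 2.89 FPKM in the triptonide libraries, 0.427 and 0.496 FPKM in the triptolide libraries, and 2.98 and 3.03 FPKM in the control libraries. Their median log2 change against control was -0.02 after triptonide and -1.53 after triptolide as deposited.

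The 177 transcripts that rose after triptolide were low in control. Their median was 0.186 and 0.204 FPKM in the triptonide libraries, 0.991 and 0.948 FPKM in the triptolide libraries, and 0.0220 and 0.0284 FPKM in the control libraries. In 112 of the 177 both triptonide libraries lay above both control libraries, under either scaling. Over all tested transcripts this was seen in 28.4% as deposited and in 27.9% after scaling. The limit of 2-fold is on the log2(FPKM + 0.5) scale, so that values this far under 0.5 FPKM can rise several times within it. With a pseudocount of 0.1 in place of 0.5 the class held 267 transcripts under both scalings, of which 49 had risen after triptolide. The triptonide and control libraries overlapped under both scalings in 58 of the 177, or 32.8%, where the share over all tested transcripts was 40.4%. Those 58 had medians of 0.0610 and 0.137 FPKM in the triptonide libraries, 1.46 and 1.22 FPKM in the triptolide libraries, and 0.0377 and 0.0553 FPKM in the control libraries.

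Among the 177 were 10 unannotated transcripts, which carry a locus number of the assembly instead of an Ensembl ID, at 10 loci. Their log2 differences ranged from -3.10 to -0.94, triptonide minus triptolide. XLOC.4559.1 and XLOC.7314.1 were listed at 0 in both triptonide and both control libraries. XLOC.4559.1 had 3.39 and 4.22 FPKM in the triptolide libraries (limma adjusted p = 0.00637 between the compounds), and XLOC.7314.1 had 3.30 and 4.08 FPKM in them (limma adjusted p = 0.00637). Identical 0s contribute no variance, and p-values that rest on them may be too small.

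Changes of at least 2-fold after triptonide with triptolide held within 2-fold of control were fewer, and a larger share of them held under both scalings. They numbered 64 as deposited and 58 after scaling, 0.273% and 0.248% of those tested. Under both there were 52 (0.222%), which is 81.2% of the list as deposited and 89.7% of that after scaling. The scaling factors of the triptonide (1.09 and 1.07) and control (1.05 and 1.10) libraries were close, and a 0 does not scale. The share held under both is therefore a description. Of the 52, 39 (0.167%) had risen and 13 (0.0555%) had fallen after triptonide. As deposited the split was 48 and 16, 0.205% and 0.0684%, and after scaling 40 and 18, 0.171% and 0.0769%. Rises of at least 2-fold after triptonide were called in 3.57% of all tested transcripts as deposited and in 3.27% after scaling, and such falls in 1.03% and 0.927%. The count under both scalings was 3 and 11 without triptonide replicate 1 or 2, 3 and 2 without triptolide replicate 1 or 2, and 13 and 11 without control replicate 1 or 2. Of the 52 themselves, these refits kept 0, 3, 0, 0, 6 and 5, in that order.

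The 39 that rose after triptonide had medians at or near 0 after triptolide and in control. Their median was 1.40 and 1.44 FPKM in the triptonide libraries, 0 and 0.00593 FPKM in the triptolide libraries, and 0.00970 and 0 FPKM in the control libraries. Their median log2 change was 1.69 after triptonide and 0.00 after triptolide as deposited. Triptolide and control libraries overlapped in 32 of the 39 as deposited and in 35 after scaling. Over all tested transcripts triptolide and control libraries overlapped in 29.8% as deposited and in 32.1% after scaling. In many of the 39 the values compared are at or near 0, and the bound on triptolide was part of the rule, so these counts are a description. Both triptolide libraries were listed at 0 in 16 of the 39, and both control libraries in 17, which can make p-values too small, as above. A fit of the transcripts above 0 in all 6 libraries alone put 26 transcripts in the class of 2-fold change after triptonide under both scalings, 16 risen and 10 fallen, of which 24 were among the 52. With a pseudocount of 0.1 the class held 20. The 1 unannotated transcript among the 39, XLOC.1101.3, had 2.26 and 2.17 FPKM in the triptonide libraries, 0.134 and 0.121 FPKM in the triptolide libraries, and 0 in both control libraries, a log2 difference between the compounds of 2.11 ± 0.14 (SE; limma adjusted p = 0.00637).

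The 13 that fell after triptonide were mostly low transcripts. Their median was 0.301 and 0.330 FPKM in the triptonide libraries, 1.38 and 1.29 FPKM in the triptolide libraries, and 1.64 and 1.22 FPKM in the control libraries. Their log2 differences between the compounds ranged from -2.75 to -0.68. Triptolide and control libraries overlapped in 6 of the 13 as deposited and in 8 after scaling, where 29.8% and 32.1% of all tested transcripts did. The median log2 change after triptolide was -0.18 as deposited and 0.05 after scaling. Both triptonide libraries were listed at 0 in 3 of the 13, which can make p-values too small. The highest value in a library, which need not be of the same transcript in each, was 5.61 and 5.57 FPKM in the triptonide libraries, 18.0 and 19.7 FPKM in the triptolide libraries, and 21.7 and 26.5 FPKM in the control libraries.

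**Figure D4:**
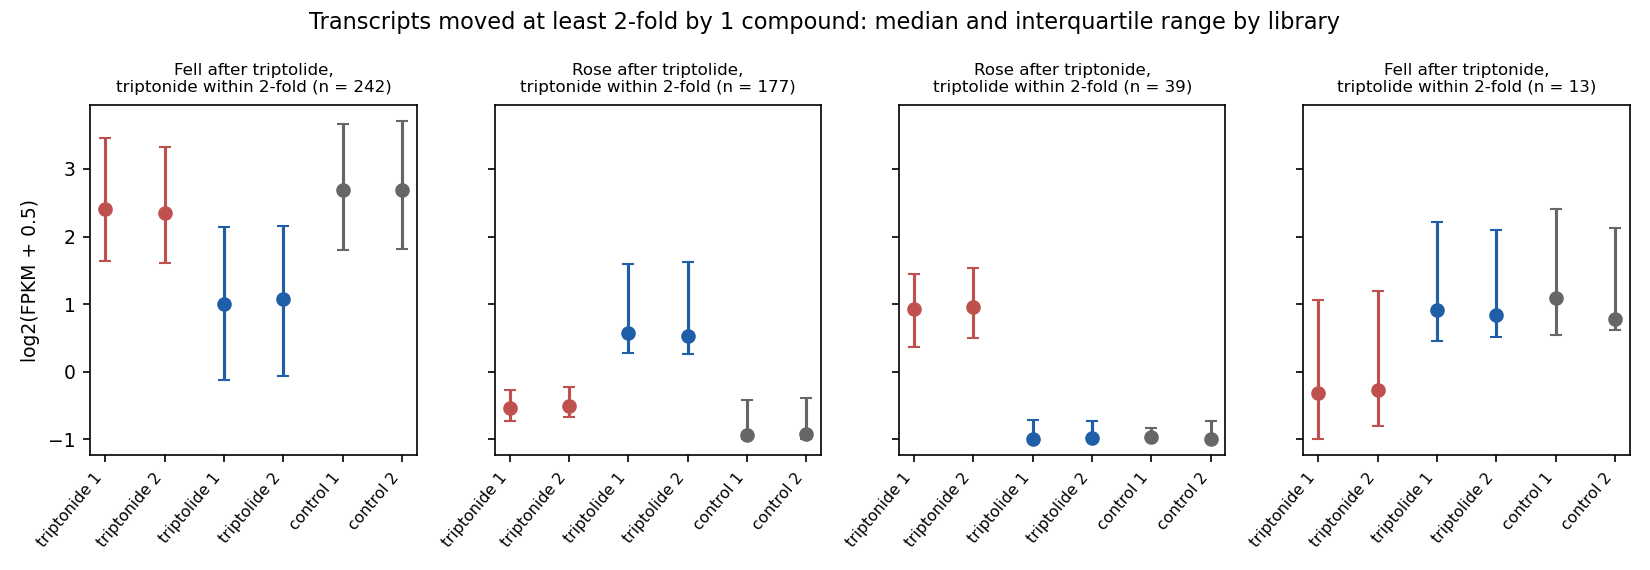
Median (points) and interquartile range (bars) over transcripts in each library, on the log2(FPKM + 0.5) scale, for the 4 sets moved at least 2-fold by 1 compound with the other within 2-fold of control under both scalings. Triptonide libraries sit slightly to the triptolide side of control in the first and second panel, while triptolide libraries sit at the control level in the third. A value of -1 is a listing at 0.

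Listing at 0 gives a difference of kind that the scaling touches only through the minimum for presence. That minimum was applied to FPKM as deposited, and no count was made after scaling. The relative depth was lower in the triptolide libraries (0.785 and 0.883) than in the triptonide libraries (1 and 0.966). Its part in the counts below was not tested. In all, 51 transcripts, 0.0778% of the table, were present in both triptonide libraries, at 1 FPKM or more, and were listed at 0 in both triptolide libraries. The reverse was seen in 12 transcripts, 0.0183% of the table. Such a 0 can be a failed estimate of 1 transcript among several of a gene, and no gene was named here to check it. Under each scaling 41 of the 51 and 8 of the 12 were called as different, where 15.7% of all tested transcripts were as deposited and 11.4% after scaling. The members were chosen for being at 0 after 1 compound and present after the other, so nothing is read from these counts. Without triptonide replicate 1 or 2 the counts were 132 and 133 for presence after triptonide and 35 and 51 for the reverse. Without triptolide replicate 1 or 2 they were 123 and 130, and 53 and 48. A single library is listed at 0 more often than a pair, so these counts are larger by construction.

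Control levels split the 51 transcripts. In 24 of them both control libraries also had at least 1 FPKM, with medians of 3.02 and 2.82 FPKM in the triptonide libraries and 2.76 and 2.71 FPKM in the control libraries, while both triptolide libraries were listed at 0. In 8 both control libraries were listed at 0, with medians of 3.32 and 1.68 FPKM in the triptonide libraries. Of the other 19, 14 reached 1 FPKM in 1 control library, and 5 were under it in both without being listed at 0 in both. The mean triptonide level of the 51 ran from 1.01 to 34.2 FPKM and was at least 10 FPKM in 6 of them.

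Of the 12 transcripts listed at 0 after triptonide, 2 were present in both control libraries and were named after their values were seen. ENSMUST00000106115 had 0 in both triptonide libraries, 7.57 and 8.02 FPKM in the triptolide libraries, and 14.3 and 13.4 FPKM in the control libraries. ENSMUST00000105539 had 0 in both triptonide libraries, 2.69 and 3.07 FPKM in the triptolide libraries, and 2.24 and 3.25 FPKM in the control libraries. The first was also lower after triptolide than in control, whereas the triptolide and control libraries overlapped for the second. Another 3 were at 0 in control as well, namely XLOC.4559.1, XLOC.7314.1 and ENSMUST00000132186, of which the last had 2.13 and 2.59 FPKM in the triptolide libraries.

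**Figure D5:**
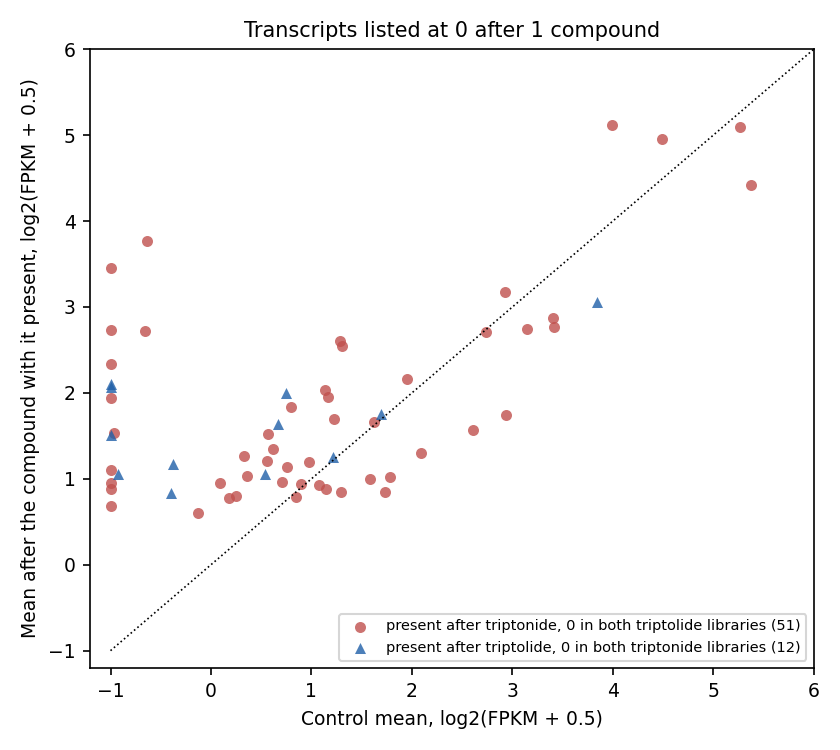
Mean level after the compound in which a transcript is present (vertical) against its mean level in control (horizontal), on the log2(FPKM + 0.5) scale, for the 51 transcripts listed at 0 in both triptolide libraries (circles) and the 12 listed at 0 in both triptonide libraries (triangles). Points near the dotted line are at the control level, and points at -1 on the horizontal axis are listed at 0 in control.

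Differences of strength held 830 transcripts as deposited and 709 after scaling, 3.55% and 3.03% of those tested, and 519 (2.22%) under both. Of the 519, 305 (1.3%) were higher and 214 (0.914%) lower after triptonide than after triptolide. The split was 567 and 263 as deposited, 2.42% and 1.12%, and 315 and 394 after scaling, 1.35% and 1.68%. Triptolide had the larger change in 212 rises and 298 falls. For the rises the median log2 change was 1.26 after triptonide and 2.11 after triptolide, and for the falls -0.63 after triptonide and -1.66 after triptolide as deposited. The median ratio of the triptonide change to the triptolide change was 0.608 for the rises and 0.388 for the falls as deposited. Among all members as deposited with the larger change after triptolide, it was 0.568 for 255 rises and 0.424 for 542 falls. Among all such members after scaling, it was 0.550 for 385 rises and 0.485 for 306 falls, so the gap between rises and falls was smaller. The class rule does not ask which compound had the larger change. The transcripts behind these ratios were picked out by the larger change of triptolide, so the ratios lie under 1 by construction and are a description. Refits under both scalings held 3 and 7 such transcripts without triptonide replicate 1 or 2, 3 and 4 without triptolide replicate 1 or 2, and 33 and 48 without control replicate 1 or 2. Of the 519 themselves, these refits kept 0, 3, 1, 1, 32 and 41, in that order.

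Triptonide had the larger change in 9 of the 519, with 7 rises and 2 falls. The 7 rises had a median log2 change of 3.93 after triptonide and 1.72 after triptolide as deposited, and their differences between the compounds ran from 0.84 to 2.81. The 2 falls were ENSMUST00000106115, at 0 after triptonide, and ENSMUST00000108817, both named after their values were seen. ENSMUST00000108817 had 6.45 and 8.74 FPKM in the triptonide libraries, 13.1 and 12.5 FPKM in the triptolide libraries, and 46.9 and 44.6 FPKM in the control libraries. The groups did not overlap, and the log2 difference between the compounds was -0.73, with a 95% interval of -1.12 to -0.34 (limma adjusted p = 0.0400), and -1.04 after scaling (limma adjusted p = 0.0281).

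Many transcripts could be put in no class by direction, bound or strength. Of the calls between the compounds, 1850 as deposited and 1267 after scaling were of this sort, 7.9% and 5.41% of those tested, of which 23 and 20 were listed at 0 after 1 compound as described above, and 580 (2.48%) were so under both. As deposited 1464 (6.25%) of them were higher and 386 (1.65%) lower after triptonide, after scaling 490 (2.09%) and 777 (3.32%), and under both 301 (1.29%) and 279 (1.19%). For 231 of the 1850 neither compound was called against control, and for 1272 triptolide was called at under 2-fold. In 244 triptolide reached 2-fold but the triptonide interval was wider than 2-fold, and in 103 triptonide was called and triptolide was not. Among transcripts with no call between the compounds, the 95% interval of the difference lay within 2-fold for 9545 as deposited and 10699 after scaling, and reached beyond it for 10193 and 10041, so that a 2-fold difference is not excluded for these.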

How the data were processed

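Per the labels' protocols, total RNA lost its ribosomal RNA, and strand-specific libraries (2 triptonide, 2 triptolide, 2 control) were sequenced from both ends for 150 bases. FPKM were computed by the authors for 65535 transcripts, 65189 with mouse Ensembl IDs and 346 unannotated. With its header line the table has as many lines as an older spreadsheet format can hold, so it may be cut short, and every count and share is of the transcripts it lists. STAR and StringTie are named in the submitters' processing notes, which also name hg19, a human assembly, so no coordinates are given.

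For log2(FPKM + 0.5), limma 3.58.1 was run in R 4.3.3 as 1 fit of the 3 groups with an intensity trend, 3 residual and 1.68 prior degrees of freedom, and Benjamini-Hochberg adjustment over all 23407 transcripts. The test was run on simulated data first. Classes by direction, bound and strength were made exclusive. Transcripts that met the triptolide rule with both compounds called against control, 318 as deposited and 225 after scaling, were counted under direction and strength only. The same was done for 4 and 2 that met the triptonide rule. Listing at 0 was counted apart from these classes, so a transcript listed at 0 can also be in one of them. Named transcripts were the 2 with the largest difference each way among those opposite under both scalings. Planned gene lists and cell type markers need gene names and were not run. The members and classes were chosen with earlier results of these data known. Other settings were pseudocounts, filters, scalings, no trend, a replicate block, the 4 treated libraries alone, each library left out, and, added after seeing the data, transcripts above 0 in all 6 libraries. Depth steps were read from FPKM of 0.01 to 0.2, with 6 of 6 library pairs within 0.03 log2 units of the fitted ratios.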

Additional observations from a re-analysis of the deposited data

How the results depend on the processing

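Counts here are for FPKM as deposited unless said otherwise, and the cause of each shift was not tested. A change of 1 compound alone means here that the interval of the other stayed within 2-fold of control, or within the bound given. The set tested was 50307 transcripts with no filter, 17136 with a minimum of 1 FPKM and 21266 for those above 0 in all 6 libraries. In the main fit it was 23407, so counts and medians under these 3 settings are of other sets. Calls between the compounds numbered 1820 with the 4 treated libraries alone. The median log2 difference of all tested transcripts was 0.32 with a pseudocount of 0.1, 0.19 with 1, 0.030 with no filter, 0.28 with a minimum of 1 FPKM, 0.01 with median-of-ratios, 0.048 with quantile normalization and 0.15 with the sum outside the 100 most abundant transcripts. Opposite directions numbered 3 with no filter and 8 with no intensity trend. Changes of triptonide alone numbered 31 with a pseudocount of 0.1, 38 among transcripts above 0 in all 6 libraries and 30 with the interval held within 1.5-fold. Changes of triptolide alone numbered 573 with quantile normalization and 251 with the interval within 1.5-fold. Differences of strength numbered 325 with no filter and 436 with no trend. Listing at 0 held 125 transcripts with presence at 0.5 FPKM and 29 at 2 FPKM.

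Leaving out each library in turn gave 91 to 1940 calls, a median difference of 0.22 to 0.25, 1 to 11 opposite directions, 10 to 54 changes of triptonide alone, 35 to 682 of triptolide alone, 31 to 279 differences of strength and 167 to 184 transcripts listed at 0. Calls numbered 91 and 1261 without triptonide replicate 1 or 2, 1155 and 1646 without triptolide replicate 1 or 2, and 1937 and 1940 without control replicate 1 or 2. The lone library of a group is then assumed to vary like the other groups. The 5 named transcripts kept the sign of their difference in every setting run.

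Same-numbered libraries did not deviate together, with correlations of 0.014 for triptonide and triptolide, 0.0096 for triptonide and control, and -0.037 for triptolide and control. The labels do not say whether they were prepared together, and these correlations cannot show it. With the replicate block, 1639 transcripts were called between the compounds, 1 was opposite in direction, 28 changed after triptonide alone and 132 differed in strength. Groups of 2 libraries allow no test for outlying samples, and the unknown depth and dose limit what a difference shows.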
